A study of Mus musculus with 15 samples.

Results

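The 9 output genes of the circadian clock followed in the liver of each mouse were Dbp, Tef, Hlf, Nfil3, Ciart, Bhlhe40, Bhlhe41, Usp2 and Wee1. They were chosen by name, as known clock-controlled transcription factors and enzymes, among the 55450 Ensembl genes of the count table, and all 9 passed the filter on low counts that left 15808 genes for testing. Messenger RNA had been sequenced from the liver of 15 female C57BL/6 mice, 5 in each of 3 groups, with 1 library per mouse. The Adult mice (A1 to A5) entered the treatment at 6 months of age and the Old mice (O1 to O5) at 22 months, and both were gavaged daily with corn oil. The PDX mice (P1 to P5), 22 months old at the start as well, were gavaged with protectin DX at 30 ng per g of body weight in corn oil. Protectin DX is a lipid mediator derived from docosahexaenoic acid. The gavage began after baseline tests, so all mice were older than these ages when the livers were taken. Both 9 weeks and 8 weeks of gavage are on record, the former in the treatment protocol and the latter in the design text of the series. The mice came from the colony of the National Institute on Aging, had chow at all times and lived under a light-dark cycle. They were killed in batches between the morning and the late afternoon, in an order that alternated between groups. The hour and the batch of each mouse are not given in the sources used here, so the part of either in any difference below was not tested.

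In the circadian clock, the activators BMAL1 (gene Arntl), CLOCK and NPAS2 bind E-box sequences and drive the Per, Cry and Nr1d genes, whose products then repress the activators or their genes. Output genes carry this rhythm to the rest of the cell. Dbp, Tef and Hlf encode the PAR bZIP transcription factors, which activate genes through D-box sequences, and in liver they are known for driving enzymes of drug and bile acid metabolism. Nfil3 encodes a bZIP repressor of the same D-boxes. Ciart (also called Chrono), Bhlhe40 (Dec1) and Bhlhe41 (Dec2) encode repressors that act at E-boxes, Usp2 encodes a ubiquitin-specific protease, and Wee1 encodes the kinase that holds CDK1 inactive before mitosis.

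Promoter windows of RefSeq transcripts on GRCm38.p6, from 250 bases before the start to 50 bases after it, were matched by symbol for 7 of the 9 genes. They were searched on both strands for the E-box CACGTG, the D-box TTANGTAA and the REV-ERB response element TAGGTCA, the sequence through which the Nr1d proteins act on Nfil3 and Arntl. Tef has 2 windows, which makes 8 windows in all. The window of Usp2 (chr9:44084670-44084969) lies at a start inside the gene. Sequence outside the windows was not searched, so a motif missing from a window may stand elsewhere in or near its gene. An E-box stood in 4 of the 8 windows, those of Tef, Ciart and Bhlhe41, and in 7.15% of all 32851 windows, or, by gene, in 3 of 7 against 8.09% of 27025 genes. The D-box, in 2.323% of all windows, stood in none of the 8. A REV-ERB response element, in 2.606% of all windows, stood in 1 of them (that of Nfil3), where its reverse complement TGACCTA is read on the strand of the gene. The stretches around these matches are shown 5′ to 3′ on the strand of each gene, with the motif in capitals. The first Tef stretch (chr15:81802534-81802563, plus strand) begins 139 bases before its start site and the second (chr15:81811264-81811293), at another start inside the gene, 150 bases before. The Ciart stretch (chr3:95882255-95882356, minus strand) holds all 3 of its E-boxes. The Bhlhe41 stretch is chr6:145865556-145865585 and the Nfil3 stretch chr13:52981034-52981063, both on the minus strand.
Tef, first start: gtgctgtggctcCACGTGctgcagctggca
Tef, second start: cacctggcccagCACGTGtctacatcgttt
Ciart: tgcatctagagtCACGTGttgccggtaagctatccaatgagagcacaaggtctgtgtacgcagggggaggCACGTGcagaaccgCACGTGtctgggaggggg
Bhlhe41: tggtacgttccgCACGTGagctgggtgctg
Nfil3: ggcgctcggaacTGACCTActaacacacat

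Between 22424383 and 36070835 read pairs were counted in a mouse. Levels are given as CPM, the count of a gene relative to the depth of its library after TMM scaling, which sets libraries of different composition on a common scale. The hepatocyte markers Alb, Apoa1, Ttr, Tat, Cps1 and Cyp2e1 together held between 60087 and 202809 CPM in a mouse, so the libraries carried the mRNA of the labelled organ. Summed levels of the 6 neutrophil and myeloid progenitor markers were 2.35 to 6.02 CPM in Adult, 17.8 to 210.4 in Old and 38.4 to 188 in PDX, and those of the 4 tested proliferation markers reached 124 CPM in O2 against at most 12.9 in the other Old mice, 14.8 in the PDX group and 5.85 in the Adult group. In bulk tissue, fewer cells of a type and less RNA per cell cannot be told apart. For the output genes the mouse that stood apart was A4. It was the highest of 15 mice for 7 of the 9 genes, whereas it was the highest for 7.20% of all tested genes, and it was the lowest of all for Nfil3. O4 was the lowest mouse for 4 of the 9 genes. Of the Old mice, O2 had the highest summed B cell, T cell and macrophage markers and O5 those of stellate cells and cholangiocytes. Values without A4, and without some of the other mice, are given beside each gene.

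Dbp (ENSMUSG00000059824, chr7:45705088-45710203, plus strand), known for its strong daily rhythm in liver, varied most among the 9 genes. Its level in A1 to A5 was 40.5, 11.4, 5.02, 189 and 4.94 CPM. O1 to O5 had 2.59, 3.92, 56.7, 1.30 and 20.8 CPM, and P1 to P5 had 2.80, 2.29, 3.47, 2.93 and 3.75 CPM. A4 was therefore 145-fold above O4, while the PDX mice differed among themselves by at most 1.64-fold, and every PDX mouse lay below every Adult mouse. In edgeR's quasi-likelihood test the log2 fold change of Old over Adult was -1.56 ± 1.04 (SE; adjusted p = 0.352). That of PDX over Old was -2.48 ± 1.10 (adjusted p = 0.793), and that of PDX over Adult was -4.04 ± 1.17 (adjusted p = 0.0771). No comparison of Dbp passed its threshold in this fit. Of 23 alternative fits, 5 called Dbp between PDX and Adult, among them DESeq2, the compared groups alone and the fit without O2 and O5. Without A4 the value between Old and Adult turned to 0.13 and that between PDX and Adult became -2.35 (adjusted p = 0.232). Without O3, the highest Old mouse, Old over Adult was -2.81 and PDX over Old was -1.23.

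Tef (ENSMUSG00000022389, chr15:81802421-81826863, plus strand) encodes the second PAR bZIP activator. It stood at 83.2, 53.9, 51.5, 226 and 46.7 CPM in A1 to A5, at 24.3, 31.6, 99.3, 20.7 and 211 CPM in O1 to O5, and at 21.1, 26.1, 30.6, 31.0 and 48.0 CPM in P1 to P5. A4, O5, O3 and A1 were high, and O1, O2 and O4 lay within or close to the range of the PDX mice. The log2 fold changes were -0.25 ± 0.61 for Old over Adult (adjusted p = 0.824), -1.30 ± 0.62 for PDX over Old (adjusted p = 0.793) and -1.56 ± 0.62 for PDX over Adult (adjusted p = 0.174). Leaving out A4 turned the value between Old and Adult to 0.39 (adjusted p = 0.713) and brought that between PDX and Adult to -0.91. Without O5, Old over Adult was -1.07 and PDX over Old was -0.49, and without O2 and O5 they were -0.93 and -0.61. Leaving out O1 also turned Old over Adult, to 0.015, and without O2 and without O4 it was -0.054 and -0.012.

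Hlf (ENSMUSG00000003949, chr11:90336536-90390895, minus strand), the third PAR bZIP activator, was the only one of the 9 genes to pass the threshold in any comparison of the edgeR fit. It fell by 0.80 ± 0.22 on the log2 scale in Old against Adult (1.74-fold lower, adjusted p = 0.0398) and by 0.89 ± 0.22 in PDX against Adult (1.86-fold lower, adjusted p = 0.0390). PDX and Old differed by -0.09 ± 0.22 (adjusted p = 0.917). The Adult mice had 34.8, 35.2, 38.7, 58.7 and 38.3 CPM, the Old mice 26.2, 15.9, 35.7, 23.6 and 16.5 CPM, and the PDX mice 22.2, 23.3, 18.6, 19.7 and 26.9 CPM. All PDX mice lay below all Adult mice, and of the Old mice O3 reached into the Adult range. Hlf was also the gene of the 9 with the smallest spread within groups, with an SD of 0.35 on the log2 scale against 1.83 for Dbp. Both calls were close to the threshold. When each mouse was left out in turn, the call between Old and Adult held without O1, O3, O4, O5 or P5 and was lost without any of the other 10 mice, and that between PDX and Adult held without O1, O2, O3, O5 or P5, with the direction kept in every fit. They were lost without A4 (adjusted p = 0.103 and 0.108), and the call between Old and Adult was lost without O2 and O5, the 2 Old mice with the least Hlf (log2 fold change -0.52, adjusted p = 0.108). Among the marker lists, all 6 neutrophil and myeloid markers were called higher in Old and 3 of 6 in PDX against Adult. Of 6 hepatocyte markers 1, Cyp2e1, was called lower in both. Of all tested genes, 4.71% and 1.76% were called higher and 2.07% and 0.898% lower. At edgeR's unadjusted p under 0.05, all 6 neutrophil and myeloid markers and all 6 B cell markers were higher in both comparisons, beside 27.7% and 20.6% of all genes in either direction. In Old against Adult, 5 of 5 cholangiocyte, 4 of 6 T cell, 3 of 6 macrophage and 2 of 4 tested proliferation markers were higher too, and 2, 2, 3 and 1 in PDX against Adult. Old against Adult also had 4 of 5 stellate markers (Lrat lower, the others higher), 3 of 6 hepatocyte markers (Apoa1 higher, Ttr and Cyp2e1 lower) and 2 of 5 endothelial markers (both lower). In PDX against Adult these counts were 1, 2 and 0. At the adjusted threshold, Old against Adult also had 3 of 6 B cell markers, 1 of 5 stellate markers and 1 of 4 tested proliferation markers called higher, PDX against Adult 1 of 5 cholangiocyte markers, and no T cell, macrophage or endothelial marker passed. The part of other cells in the difference of Hlf was not tested.

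**Figure D1:**
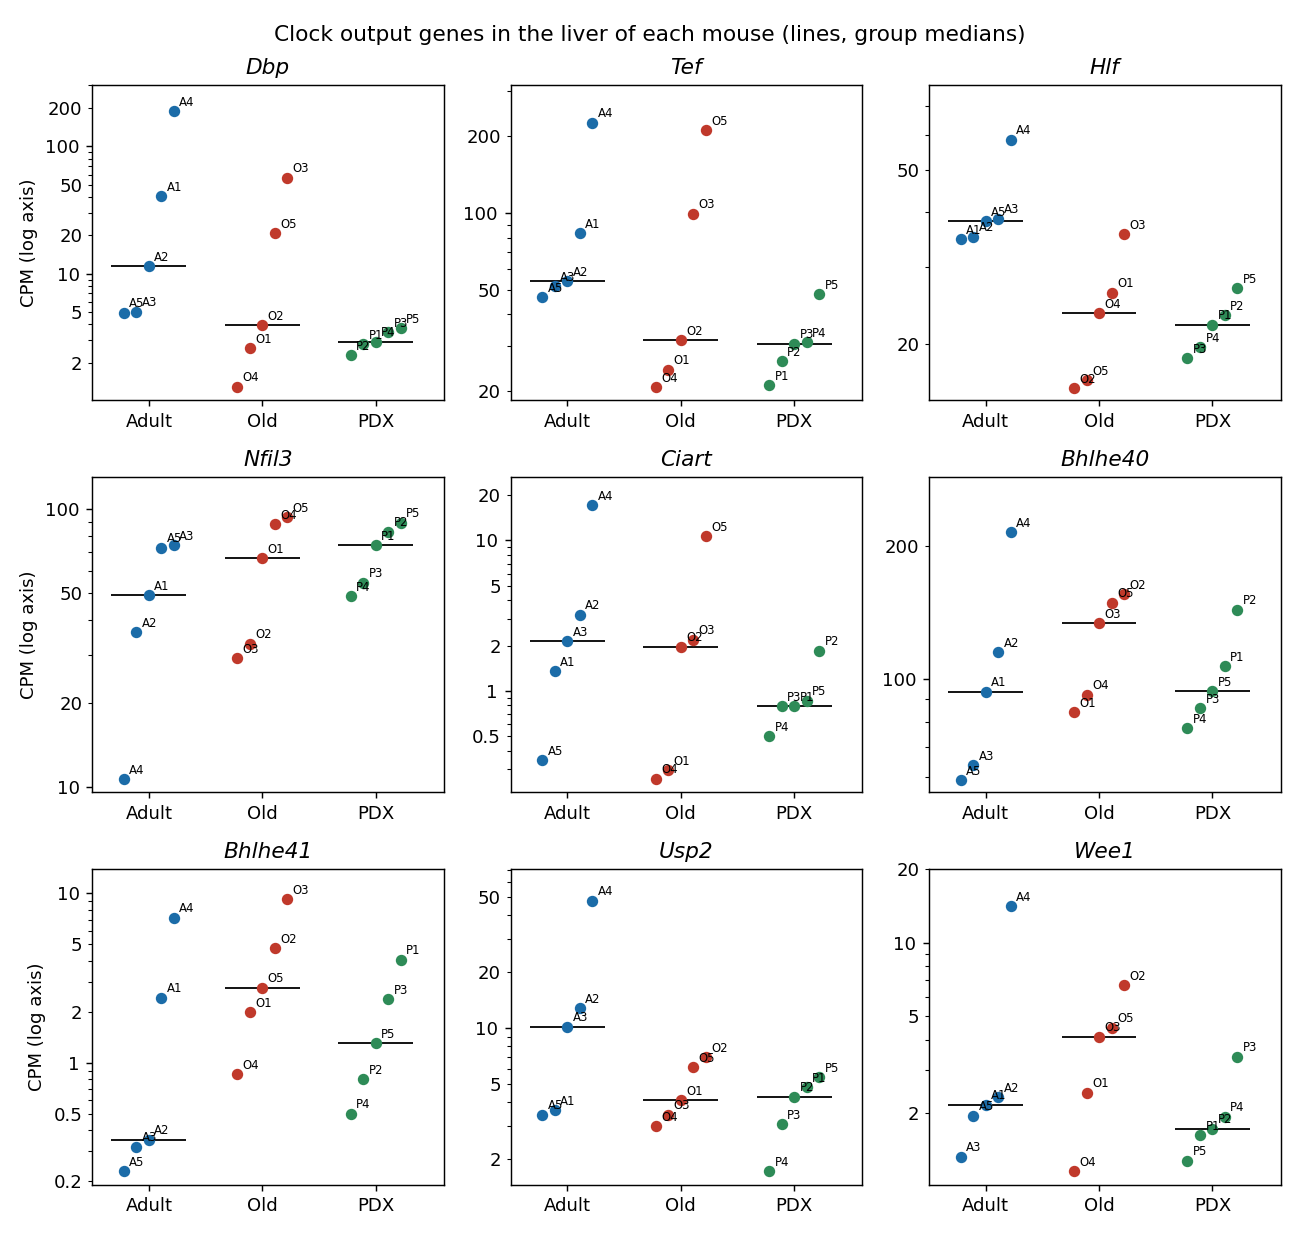
Level of each of the 9 output genes in each mouse, in CPM on a logarithmic axis, by group; points are mice, labelled by name, and lines are group medians. A4 lies at the top of 7 of the 9 panels and at the bottom for Nfil3, and for Dbp and Hlf all 5 PDX mice lie below all 5 Adult mice.

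Summed per kb of merged exon, so that transcripts of different length could be compared, the mRNA of the PAR bZIP activators came to 100.6 CPM per kb in A4, 36.9 in O3, 36.3 in O5 and 29.3 in A1. In the other mice it lay between 6.59 (O4) and 15.9 (A2), and the PDX mice held 6.93 to 11.4. Which activator supplied most of it also differed between mice. Dbp gave 62.7% of the sum in A4 and 51.3% in O3, whereas Tef gave 74.0% in O5, and Hlf gave 53.5% in O4, where Dbp gave 6.59%. In the PDX mice Dbp gave 10.1% to 14.8%, Tef 38.6% to 53.6% and Hlf 35.4% to 47.9%. Thus O3 and O5, with nearly equal sums, differed in composition, with Dbp ahead in O3 and Tef in O5.

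**Figure D2:**
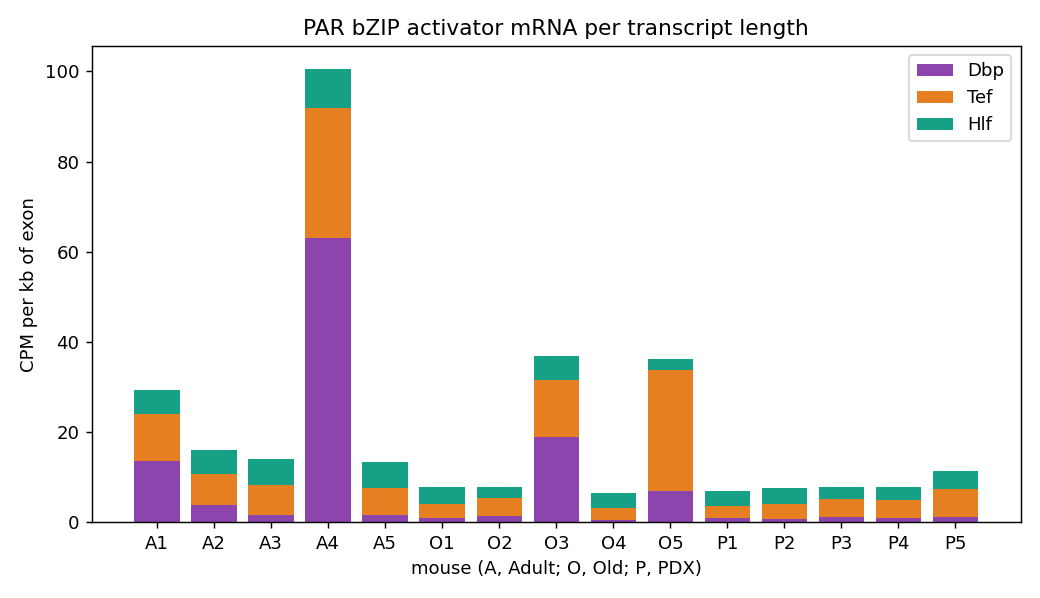
Stacked bars of Dbp, Tef and Hlf mRNA in each mouse, in CPM per kb of merged exon. A4 reaches 100.6 CPM per kb, mostly Dbp, O3 and O5 reach 36.9 and 36.3 with Dbp and Tef as the larger parts, and the 5 PDX mice stay between 6.93 and 11.4.

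Nfil3 (ENSMUSG00000056749, chr13:52967209-52981073, minus strand) encodes the repressor that competes with the PAR bZIP factors for D-boxes. In A1 to A5 it had 49.0, 36.1, 74.1, 10.6 and 72.8 CPM, in O1 to O5 66.6, 32.8, 29.1, 88.5 and 93.8 CPM, and in P1 to P5 74.4, 83.2, 54.4, 48.8 and 89.4 CPM. The lowest mice were A4, O3 and O2, and the groups overlapped. The log2 fold changes were 0.36 ± 0.44 for Old over Adult (adjusted p = 0.630), 0.17 ± 0.43 for PDX over Old (adjusted p = 0.922) and 0.53 ± 0.44 for PDX over Adult (adjusted p = 0.526). Without A4 the first was 0.10 and the last 0.27. Leaving out O5 or A3 moved the first to 0.16 or 0.56. The second was -0.0069 without O3 and 0.0086 without O2, and it rose to 0.33 without O4 and 0.37 without O5.

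Among the E-box repressors, Ciart (ENSMUSG00000038550, chr3:95878503-95882251, minus strand), whose promoter stretch above holds 3 E-boxes, ranged over 65.9-fold. Its levels were 1.35, 3.21, 2.14, 17.1 and 0.344 CPM in A1 to A5, 0.297, 1.96, 2.19, 0.260 and 10.7 CPM in O1 to O5, and 0.789, 1.85, 0.789, 0.50 and 0.860 CPM in P1 to P5. A4 and O5 were high, and A5, O1 and O4 had the lowest values, at 7 to 12 counts. Its log2 fold changes were -0.65 ± 0.96 (Old over Adult, adjusted p = 0.699), -1.69 ± 1.01 (PDX over Old, adjusted p = 0.793) and -2.33 ± 1.03 (PDX over Adult, adjusted p = 0.212). The first turned to 0.81 without A4, where the last was -0.88. Without O5 the first was -2.02 and the second -0.32, and without O2 and O5 they were -2.37 and 0.050. Leaving out O1 or O4 brought the first to -0.31 or -0.35.

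Bhlhe40 (ENSMUSG00000030103, chr6:108660629-108666925, plus strand), which encodes DEC1, had the smallest range of the 9 genes, 3.65-fold. The Adult mice had 93.6, 115, 63.6, 215 and 58.9 CPM, the Old mice 84.0, 155, 134, 92.0 and 149 CPM, and the PDX mice 107, 143, 85.7, 77.3 and 93.8 CPM. A4 was again the highest, and the groups overlapped. The log2 fold changes were 0.17 ± 0.32 for Old over Adult (adjusted p = 0.766), -0.28 ± 0.32 for PDX over Old (adjusted p = 0.845) and -0.11 ± 0.32 for PDX over Adult (adjusted p = 0.890). Without A4 the first was 0.57 (adjusted p = 0.198) and the last turned to 0.29. Leaving out any single Adult or Old mouse kept the first between 0.0087 (without A5) and 0.57. Without O2 and O5 the first was -0.067 and the second -0.021.

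Bhlhe41 (ENSMUSG00000030256, chr6:145858243-145865558, minus strand), its paralog, was low, with 2.42, 0.352, 0.319, 7.21 and 0.230 CPM in A1 to A5, 2.00, 4.74, 9.24, 0.854 and 2.78 CPM in O1 to O5, and 4.06, 0.803, 2.37, 0.50 and 1.31 CPM in P1 to P5. O3 was the highest mouse and A4 the next. A2, A3 and A5 were the lowest, at under 0.5 CPM. The log2 fold changes were 0.90 ± 0.89 (Old over Adult, adjusted p = 0.542), -1.12 ± 0.89 (PDX over Old, adjusted p = 0.803) and -0.22 ± 0.89 (PDX over Adult, adjusted p = 0.923). Without A4 the value of Old over Adult was 2.21 (adjusted p = 0.144) and that of PDX over Adult turned to 1.09. Without O3, Old over Adult was 0.30 and PDX over Old -0.52.

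The enzymes were low as well. Usp2 (ENSMUSG00000032010, chr9:44067021-44095627, plus strand) had 3.63, 12.8, 10.2, 47.8 and 3.44 CPM in A1 to A5, 4.12, 6.99, 3.43, 2.97 and 6.17 CPM in O1 to O5, and 4.81, 4.30, 3.06, 1.71 and 5.47 CPM in P1 to P5. A4, A2 and A3 lay above all Old and PDX mice, and A1 and A5 lay among them. The log2 fold changes were -1.71 ± 0.61 for Old over Adult (adjusted p = 0.0879), -0.29 ± 0.60 for PDX over Old and -2.01 ± 0.62 for PDX over Adult (adjusted p = 0.0932). Without A4 the first and the last shrank to -0.66 and -0.95. The value between PDX and Old was -0.11 without O2, -0.18 without O5 and -0.10 without P4, and 0.15 without both O2 and O5. The DESeq2 Wald test, by contrast, called Usp2 in both comparisons with Adult (adjusted p = 0.0296 and 0.0137).

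Wee1 (ENSMUSG00000031016, chr7:110122046-110143286, plus strand) had 2.16, 2.33, 1.32, 14.1 and 1.95 CPM in A1 to A5, 2.42, 6.70, 4.11, 1.15 and 4.47 CPM in O1 to O5, and 1.62, 1.73, 3.41, 1.93 and 1.27 CPM in P1 to P5. A4 was the highest mouse and O2, the mouse with the most proliferation marker mRNA, was next. A4 had no such excess, since the Adult mice held 4.32 to 5.85 CPM of those markers. The log2 fold changes were -0.21 ± 0.61 (Old over Adult), -0.92 ± 0.62 (PDX over Old, adjusted p = 0.793) and -1.13 ± 0.62 (PDX over Adult). Without A4 the first turned to 0.95 (adjusted p = 0.194) and the last to 0.03. Without O2 the first was -0.52 and the second -0.61, and without O4 the first was 0.016. Of 10 other genes of the Wee1 pathway, 7 passed the filter. None of them passed the threshold, with median log2 fold changes of 1.52 in Old over Adult, -1.06 in PDX over Old and 0.49 in PDX over Adult. At edgeR's unadjusted p under 0.05 there were 3 of 7 (Cdc25b, Pkmyt1 and Ccna2), 1 (Cdk2) and 0 in this order. The shares of all genes were 27.7%, 5.28% and 20.6%. The tested genes of the list summed to 101.8 CPM in O2, against at most 42.5 CPM in the other Old mice, 29.9 in PDX and 34.3 in Adult. Cdk1, for one, reached 11.3 CPM in O2, with an Old median of 1.19 CPM and an Adult median of 1.06 CPM. The names Cdc25b, Pkmyt1, Ccna2, Cdk2 and Cdk1, like the others given here for an unadjusted p, were chosen after their values were seen.

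Set against all genes, the calls stood as follows. Between Old and Adult, 1 of the 9 output genes was called lower, beside 2.07% of all tested genes called lower, and 2 (Hlf and Usp2) had an unadjusted p under 0.05, beside 27.7% of all genes. No output gene separated these groups without overlap, as 8.13% of all genes did. Between PDX and Adult, 1 of 9 was called lower, beside 0.898% of all genes. In the same comparison 5 of 9 (Dbp, Tef, Hlf, Ciart and Usp2) had an unadjusted p under 0.05 (20.6% of all genes), and 2 of 9, Dbp and Hlf, lay lower in every PDX mouse than in every Adult mouse (9.34% of all genes). Between PDX and Old none of the 9 was called by edgeR at the adjusted p of 0.25 set for this comparison, and 0% of all tested genes were. At an unadjusted p under 0.05 there was 1, Dbp, beside 5.28% of all genes, DESeq2 called none of the 9, and no output gene separated the groups, as 0.342% of all genes did. The median log2 fold change of the 9 genes was -0.25 in Old over Adult, -0.92 in PDX over Old and -1.13 in PDX over Adult, and that of all tested genes was 0.07, -0.07 and -0.01. Without A4 the medians of the 9 genes were 0.39, -0.92 and -0.73, so that the first turned sign. Without O4 the first was -0.012, and without O5 the first was -0.70 and the second -0.32. The second was -0.52 without O3 and -0.61 without O2. The comparisons share mice, and all but Nfil3 had a negative value in both comparisons of PDX, most of which did not pass the test.

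**Figure D3:**
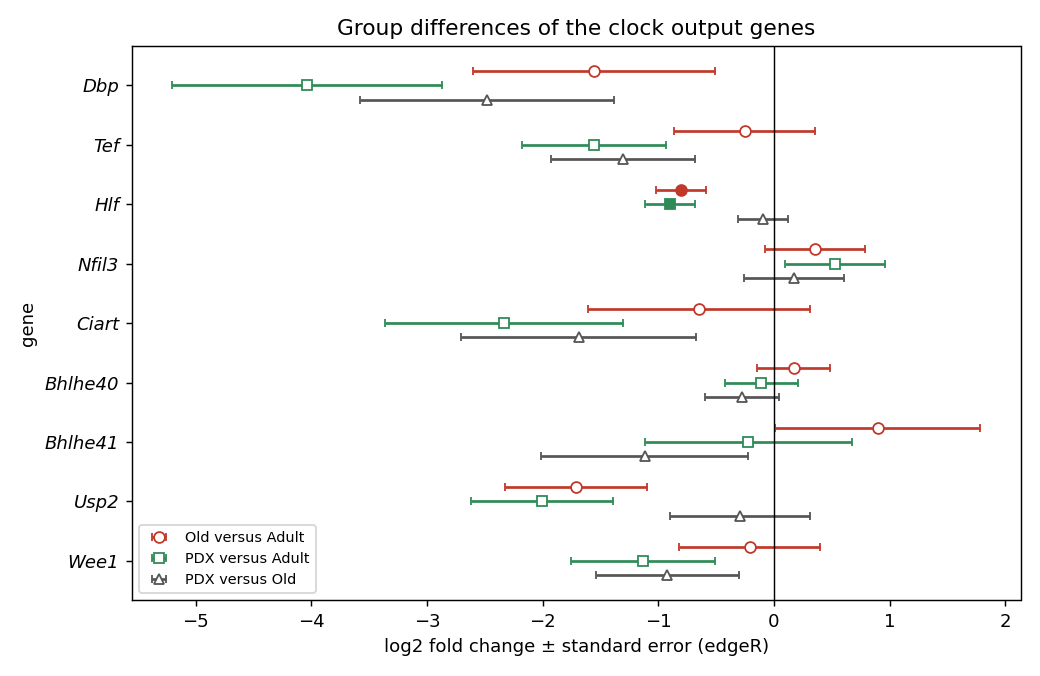
Log2 fold change of each output gene in the 3 comparisons with its standard error from edgeR's fit of 15 mice; filled symbols passed the threshold and open ones did not. Hlf passed in Old versus Adult and in PDX versus Adult, and the widest error bars belong to Dbp, Ciart and Bhlhe41.

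Ordered by the median level per kb of exon over the 15 mice, the output genes ran from Nfil3 (32.9 CPM per kb) and Bhlhe40 (19.9) over Tef (5.94), Hlf (3.93), Dbp (1.31), Usp2 (0.892), Wee1 (0.633) and Ciart (0.597) to Bhlhe41 (0.297). The ranges of neighbours in this order overlapped in each group, except in PDX between Bhlhe40 (16.4 to 30.5) and Tef (2.68 to 6.10) and between Hlf (2.78 to 4.02) and Dbp (0.765 to 1.25). The lower part of the order changed by group. In Old, the median of Wee1 (1.20) was above those of Ciart (0.867) and Usp2 (0.855), whereas in Adult Ciart (0.948) was above Wee1 (0.633). In the Adult mice, Dbp per kb ran from 1.65 to 63.1 and so passed from below Tef (5.94 to 28.7) to above it.

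The spread between mice of a group was itself large for these genes. The median SD of log2 CPM over the 9 genes was 1.31 in Adult, 0.952 in Old and 0.436 in PDX, where the median over all tested genes was 0.205, 0.525 and 0.227. Without A4 the Adult value was 0.497. For 6 of the 9 genes the SD within groups, pooled over the 3 groups, was above that of 90% of all tested genes, and Hlf was above 45.3% of them. In the PDX group the largest SD was that of Bhlhe41, 1.14, while Dbp had 0.272. No test of the difference in spread between the groups was made.

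Members of the core clock were read in the same mice. A4 had the least Arntl, 2.45 CPM against 21.1 to 59.6 CPM in the other 14 mice, and the least Npas2, 0.476 CPM against 1.59 to 16.9 CPM. It had the most Per3 (44.5 CPM), Per2 (41.9 CPM) and Nr1d2 (77.6 CPM), genes of the repressing arm. O5 differed from A4 in that it held the most Arntl (59.6 CPM), Per1 (276 CPM) and Cry1 (32.4 CPM), together with 73.8 CPM of Nr1d2 and 1.59 CPM of Npas2. O3 had 20.4 CPM of Per3, 177 CPM of Nr1d1 and the least Cry1 (6.63 CPM). In the PDX mice Npas2 stayed between 11.3 and 12.9 CPM and Arntl between 28.1 and 35.5 CPM. None of the 13 core clock genes examined passed the threshold in any comparison. Their unadjusted p in edgeR's test was under 0.05 for 1 gene between Old and Adult (Csnk1e), beside 27.7% of all genes. It was so for 1 between PDX and Old (Per1), beside 5.28%, and for 4 between PDX and Adult (Clock, Per2, Per3 and Nr1d2), beside 20.6%. Per3, which had the smallest of these p-values between PDX and Adult, had a log2 fold change of -2.30 ± 0.79 in PDX over Adult (adjusted p = 0.122). Its PDX values, 1.32 to 3.43 CPM, lay below the Adult values, 4.19 to 44.5 CPM. Cry2 also lay lower in every PDX mouse than in every Adult mouse, which makes 2 of 13, beside 9.34% of all genes. Between PDX and Old, 1 of 13 did not overlap, beside 0.342% of all genes. It was Per2, with 6.28 to 8.77 CPM in PDX and 9.36 to 25.9 CPM in Old.

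**Figure D4:**
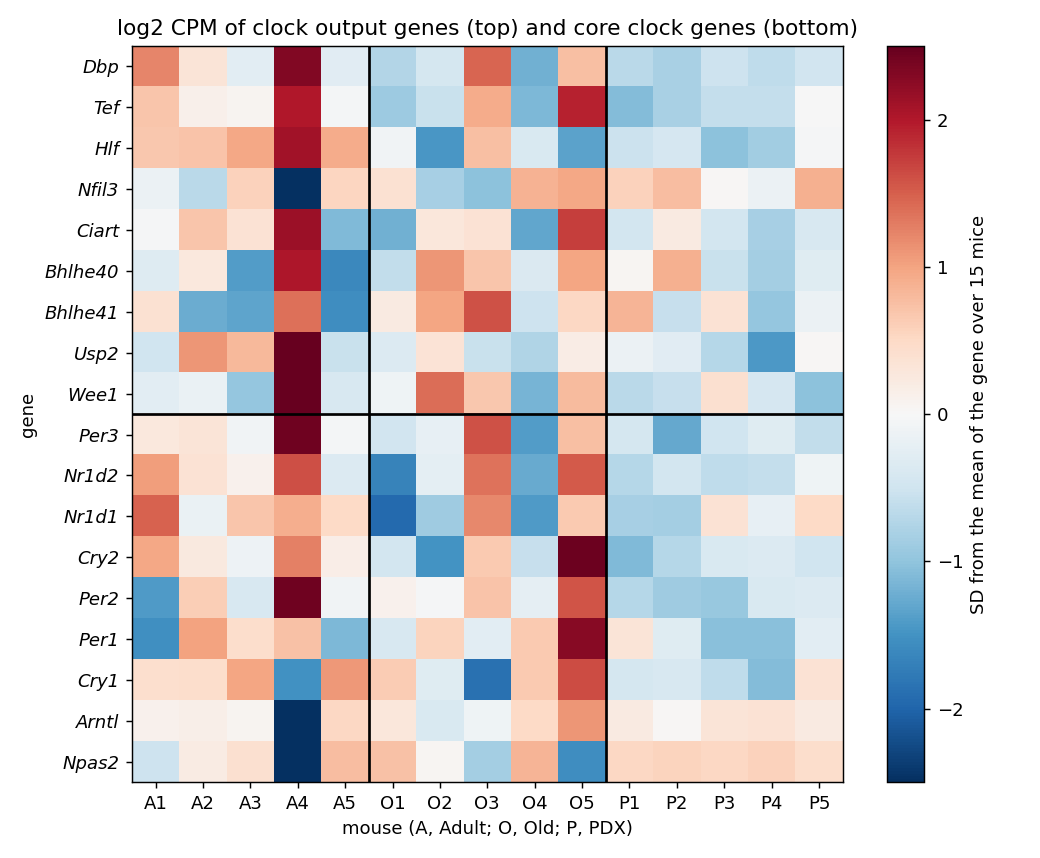
Log2 CPM of the 9 output genes (above the horizontal line) and of 9 core clock genes in each mouse, colored by the number of SD from the mean of the gene over 15 mice. A4 is high for 8 output genes and for Per3 and Per2 and low for Nfil3, Arntl and Npas2, O3 and O5 share part of this pattern, and Npas2 differs little between the 5 PDX mice.

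Whether mice high for one output gene were high for another was examined on log2 CPM centred on the group means, so that group differences did not enter. Dbp and Tef went together most closely by rank (Pearson r = 0.873, Spearman rho = 0.954, n = 15 mice). Their permutation p-values, adjusted over 36 pairs, were 0.0209 for r and 0.00108 for rho. Without A4 and O3, the mice farthest from the median of Dbp, r was 0.847. Ciart and Bhlhe40 had r = 0.844 and rho = 0.850 (permutation test, adjusted p = 0.0151 and 0.0221), and 0.821 without A4 and O5. Dbp and Bhlhe41 had r = 0.811 and rho = 0.775 (permutation test, adjusted p = 0.0209 and 0.0223), and 0.613 without A4 and O3. The only called pair of opposite direction was Nfil3 with Wee1 (r = -0.835, rho = -0.750, permutation test, adjusted p = 0.0320 and 0.0381), with -0.648 without A4 and O3. In all, 9 of 36 pairs passed by r, 8 of them positive, and 6 passed by rho. Nfil3 had a negative r with all 8 other genes. Hlf passed with none of them, and with Dbp its r went from 0.415 to -0.523 without A4 and O3. Without A4 alone, 0 of 36 pairs passed by r and 2 by rho, and 7 pairs changed sign. The r of the pairs named above was smaller without it, 0.828 for Dbp and Tef, 0.771 for Ciart and Bhlhe40, 0.703 for Dbp and Bhlhe41 and -0.632 for Nfil3 and Wee1. Without O4, 1 pair passed.

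Among the 15807 other tested genes, those whose centred level was most like that of Dbp over the 15 mice were Per3 (r = 0.926), Nr1d2 (0.889), Fam160b1 (0.888), Gab1 (0.887) and Ino80 (0.885). Those most opposed were Npas2 (-0.917), Rab21 (-0.891), Mical2 (-0.888), Smagp (-0.881) and Lrfn3 (-0.864). Tef stood 6th from the top, Bhlhe41 25th, Ciart 111th, Wee1 124th and Bhlhe40 173rd. Hlf (1837th) and Usp2 (1875th) were farther down, and Nfil3 was 180th from the bottom. Core clock genes were found at both ends and between them, with Nr1d1 120th and Cry2 210th from the top, and Cry1 283rd and Arntl 522nd from the bottom. From the top, Per2 was 568th, Rora 2515th, Csnk1e 3396th, Per1 5587th, Csnk1d 7585th and Clock 12662nd. The r of Rora, Csnk1e, Per1, Csnk1d and Clock ran from 0.352 to -0.298. It lay within the 5th to 95th percentile of all genes, -0.512 to 0.553. Without A4, Per3 was 5th, Nr1d2 3rd and Tef 25th from the top and Npas2 2nd from the bottom. Further output genes then stood farther from the ends, with Bhlhe41 179th, Ciart 597th, Wee1 1188th and Bhlhe40 1303rd from the top and Nfil3 1899th from the bottom. Usp2 (r = -0.05), Arntl (r = -0.03) and Per1 (r = -0.06) then lay near 0, and Clock turned from -0.298 to 0.443. These correlations are a description, since all points share 15 libraries and A4 weighs on each of them.

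The known liver targets of the PAR bZIP factors were read as a list of 9 genes, among them Cyp2a4, Cyp2a5, Cyp7a1, Alas1 and Por. None passed between Old and Adult or between PDX and Old. At edgeR's unadjusted p under 0.05 there were 2 of 9 (Nr1i3 and Cyp2a4) and 0 of 9, beside 27.7% and 5.28% of all genes. In PDX against Adult 1 of 9 was called lower, beside 0.898% of all tested genes. Nr1i3, which encodes the nuclear receptor CAR, fell by 1.04 ± 0.26 on the log2 scale (2.06-fold lower, adjusted p = 0.0432) with no overlap of the groups. Cyp2a4, a steroid hydroxylase, lay the other way, 3.79-fold higher in PDX than in Adult with no overlap (log2 fold change 1.92 ± 0.60, edgeR unadjusted p = 0.00572, adjusted p = 0.0963). These were the 2 genes of the list at an unadjusted p under 0.05 in PDX against Adult, beside 20.6% of all genes. Of the 9 genes, 2 (Nr1i3 and Cyp2b9) lay lower in every PDX mouse than in every Adult mouse, beside 9.34% of all genes, and 1 (Cyp2a4) lay higher. In Old against Adult 1 (Cyp2b9) lay lower without overlap, and 8.13% of all genes separated these groups in either direction. The median of the list was -0.20, -0.34 and -0.55 in Old over Adult, PDX over Old and PDX over Adult. Cyp2a4 and Cyp2a5 are near-identical copies whose uniquely aligned reads may be split between them. Of 10 other rhythmic liver outputs, Noct, which encodes nocturnin, rose in Old against Adult by 2.08 ± 0.54 (4.22-fold, adjusted p = 0.0352) and in PDX against Adult by 2.36 ± 0.54 (5.15-fold, adjusted p = 0.0311). Higher calls made up 4.71% and 1.76% of all tested genes in these comparisons. No other gene of that list passed. At edgeR's unadjusted p under 0.05 the list had 3 of 10 genes between Old and Adult, 2 between PDX and Old and 2 between PDX and Adult. The shares of all genes were 27.7%, 5.28% and 20.6%. Of 8 temperature-responsive genes, Hsp90aa1 rose in Old against Adult (0.53 ± 0.14, adjusted p = 0.0328), and no other gene of that list passed. Its value in PDX against Adult was 0.53 ± 0.14 too, which did not pass (adjusted p = 0.051), and in PDX over Old it was -0.005. This list had 2 of 8, 2 and 1 genes at an unadjusted p under 0.05 in the same order of comparisons, beside the same shares of all genes. None of 8 glucocorticoid-responsive genes passed in any comparison. At edgeR's unadjusted p under 0.05 there was 1 of 8 between Old and Adult (Sgk1) and 1 between PDX and Adult (Tsc22d3). Between PDX and Old there were 3 (Sgk1, Per1 and Dusp1). The shares of all genes were 27.7%, 20.6% and 5.28% in this order. Of 9 fasting and feeding genes none passed either. At an unadjusted p under 0.05 there were 0 of 9 between Old and Adult, 2 (G6pc and Srebf1) between PDX and Adult and 1 (G6pc) between PDX and Old. The shares of all genes were again 27.7%, 20.6% and 5.28%.

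The labels also give the frailty index and the running wheel distance of each mouse. The 9 genes were related to both over the 10 Old and PDX mice, with levels and measures centred on the group means. None of the 18 relations passed. The closest was Tef with running wheel distance (r = -0.828, rho = -0.709, n = 10 mice, permutation test, adjusted p over 18 relations = 0.0515 and 0.359). O5 had the most Tef of these mice and the shortest distance, 0.0399 km per day against 0.459 to 1.38 km per day in the others, and without the 2 mice farthest from the median r was -0.530.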

How the data were processed

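Poly(A) RNA from the liver of 15 mice (5 Adult, 5 Old, 5 PDX), grouped by their labels, was sequenced as strand-specific paired ends. Per the labels and the submitters' processing notes, the authors aligned reads with STAR 2.6.0c to mm10 and counted unique proper pairs per non-mitochondrial gene with featureCounts (Subread 1.6.2, Ensembl 100), on the strand of the gene. They deposited these counts without normalization, together with log2 values from the variance stabilizing transformation of DESeq2 1.23.10. Of 55450 genes, 55104 received a symbol, and 0 columns lacked a sample. Coordinates and exon lengths are from GENCODE M21 (GRCm38).

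Counts were filtered with filterByExpr (minimum count 10, minimum total 15), scaled with TMM and tested in R 4.3.3 with edgeR 4.0.16 (quasi-likelihood, 1 fit of 15 mice, Benjamini-Hochberg adjustment over 15808 genes, threshold 0.05, or 0.25 between PDX and Old, as in the study). Log2 CPM used a prior count of 2. Correlations used two-sided permutation within groups (100000 resamples, seed 1) in Python 3.11.15 with scipy 1.17.1. Alternatives were DESeq2 1.42.0, limma 3.58.1 on the deposited log2 values, other size factors and filters, fits of the compared groups, a replicate block, and fits without O2 and O5 or without each mouse in turn. For the pairs of genes, leaving out each mouse was chosen after seeing the data. Scripts were tested on simulated data.

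The 9 genes and the gene lists were chosen with earlier results of these data known. All 9 genes are named in every comparison. Of other lists, at most 3 genes past the threshold with the smallest p are named, beside those named for an unadjusted p or for groups without overlap. Core clock genes may all be named, and the 5 genes most and least like Dbp are named. A few genes of the other lists are not reported here.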

Additional observations from a re-analysis of the deposited data

Results flagged for a closer look

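In each group of 5 mice, the gap between the highest or lowest mouse and its neighbour was divided by the range of log2 CPM and held against Dixon's critical value of 0.71, for the 9 output genes and the 13 core clock genes. Chance alone gives about 1 such mouse in 20 groups, and 66 groups of values were examined, which are not independent because they share the mice. A mouse stood apart in 6 of them. In all 6 the mouse was A4 in the Adult group, which stood apart with high Hlf (58.7 CPM), Wee1 (14.1 CPM) and Per3 (44.5 CPM) and with low Arntl (2.45 CPM), Clock (22.6 CPM) and Cry1 (7.79 CPM). For Dbp no group held such a mouse, since the Adult and Old values were spread over their whole range.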

How the results depend on the processing

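Counts of output genes past the threshold depended on the fit. Between Old and Adult (1 in the reported fit), DESeq2 called 2 (Hlf and Usp2), and 0 were called with no filter on low counts, with the compared groups only, with the replicate block and without O2 and O5. Leaving out each mouse gave 0 to 1 here, 0 between PDX and Old and 0 to 2 between PDX and Adult. Between PDX and Adult (1 in the reported fit), DESeq2 called 3 (Dbp, Hlf and Usp2), the compared groups alone gave 4 (Dbp, Tef, Hlf and Usp2), as did the fit without O2 and O5, and no filter and the replicate block gave 0. The Hlf calls held in 5 of 15 fits without 1 mouse in each comparison, with adjusted p from 0.00906 to 0.103 for Old over Adult and from 0.0127 to 0.108 for PDX over Adult. Between PDX and Old, every alternative gave 0. Same-numbered mice are different animals, and the numbers were not taken as a pairing. Over the tested genes, deviations of same-numbered Old and Adult mice had a mean r of -0.168 (-0.215 to -0.11), against 0.0435 for other pairs of mice. The mean r was 0.092 for PDX and Old (other pairs, -0.0225) and 0.031 for PDX and Adult (other pairs, -0.0078). The block lowered all calls between Old and Adult from 1072 to 237. Pairs past the threshold were 14 without centring and 0 to 14 when a mouse was left out (0 without A4, 1 without O4, 5 without A5 and without O1, 14 without O5).

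Directions that turned were all of values past no threshold. Wee1 in Old over Adult was 0.14 on the variance stabilized values and 0.23 with the replicate block. Without O2 and O5, Bhlhe40 in Old over Adult was -0.067, and Ciart and Usp2 in PDX over Old were 0.050 and 0.15. In PDX over Adult, Bhlhe40 was 0.028 and Bhlhe41 0.31 on the variance stabilized values, and Bhlhe41 was 0.27 with the replicate block. When a mouse was left out, Old over Adult ranged from -2.81 to 0.13 for Dbp, -1.07 to 0.39 for Tef, -2.02 to 0.81 for Ciart and -0.52 to 0.95 for Wee1. PDX over Old ranged from -0.21 to 0.11 for Hlf and from -0.0069 to 0.37 for Nfil3. PDX over Adult ranged from -0.27 to 0.29 for Bhlhe40, -0.75 to 1.09 for Bhlhe41 and -1.42 to 0.034 for Wee1. The upper end of each range in the comparisons with Adult was the fit without A4. Apart from the construction of these fits, the cause was not tested. Ciart and Bhlhe41 had the fewest counts, 7 in the lowest mouse, and the share of counting error in their spread was not tested.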
